A study of Mus musculus with 12 samples.

Results

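The genes described here are 10 members of the matrix metalloproteinase system: the proteases Mmp2, Mmp3, Mmp9, Mmp10, Mmp13, Mmp14 and Mmp19 and the tissue inhibitors of metalloproteinases Timp1, Timp2 and Timp3. They were listed by symbol, with earlier results of these data known, and are 10 of the 17335 genes counted in either of 2 mouse cell lines. All 10 had a row in the table of the stellate line (16386 genes) and 9 in that of the cancer line (15309 genes), where Mmp9 was not analysed. All 10 passed the low-count filter in the stellate line and 8 in the cancer line.

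PSC4 is a murine pancreatic stellate line, a stromal cell that can turn into a matrix-producing fibroblast, and KPC4 is a mouse pancreatic adenocarcinoma line. Bulk RNA sequencing was done on 4 groups of 3 biological replicates. For Gem-SU, KPC4 cells received 10 µM of the nucleoside analogue gemcitabine for 6 h, were washed, and conditioned starvation medium over 14 h, and vehicle in place of the drug gave Control-SU. PSC4 cells stayed 24 h in one or the other. For the second pair of groups, PSC4 cells spent 6 h in Gem-SU or Control-SU, were washed and conditioned fresh starvation medium for 18 h, and KPC4 cells stayed 24 h in this Gem-PSC-SU or Control-PSC-SU. The control groups therefore also received a conditioned medium, and each cell type is represented by 1 line. Total counts per library were 29559414 to 38138356 in PSC4 and 26354328 to 34744150 in KPC4. The labels name biological replicates without saying how the cultures were separated, so p-values measure the spread between these libraries.

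Matrix metalloproteinases are zinc-dependent proteases that cut extracellular matrix and cell-surface proteins. Most are secreted as inactive precursors, and Mmp14 is a membrane-bound member that, with Timp2 as an adaptor, activates the Mmp2 precursor at the cell surface. Timp proteins block the active enzymes by binding their catalytic site, so both sides are read together. In the pancreas, stellate cells are a known source of Mmp2 and Timp transcripts, and the stromelysins and collagenases are classic targets of the transcription factor AP-1.

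Mmp3, Mmp10 and Mmp13 belong to a tandem cluster of Mmp genes on chromosome 9, where the annotation orders them Mmp13, Mmp12, Mmp1b, Mmp3, Mmp1a, Mmp10. Promoter windows of 250 bases before to 50 bases after the annotated start were matched by symbol in RefSeq (GRCm38.p6) for 7 of the 10 genes, leaving out Mmp2, Mmp9 and Mmp19. They were searched on both strands for TGANTCA (the AP-1 element), TATAAA and GGGCGG (a GC box), and positions count from the annotated start. The 3 cluster genes are printed because they alone among the 7 held a TGANTCA match, and Mmp14 is printed for contrast. Capitals mark the AP-1 match.
Mmp13: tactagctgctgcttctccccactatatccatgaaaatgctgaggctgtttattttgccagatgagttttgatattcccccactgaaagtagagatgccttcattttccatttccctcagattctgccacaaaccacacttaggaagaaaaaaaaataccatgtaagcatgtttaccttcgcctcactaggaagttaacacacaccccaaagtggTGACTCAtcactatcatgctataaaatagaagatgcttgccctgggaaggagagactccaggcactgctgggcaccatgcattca
Mmp3: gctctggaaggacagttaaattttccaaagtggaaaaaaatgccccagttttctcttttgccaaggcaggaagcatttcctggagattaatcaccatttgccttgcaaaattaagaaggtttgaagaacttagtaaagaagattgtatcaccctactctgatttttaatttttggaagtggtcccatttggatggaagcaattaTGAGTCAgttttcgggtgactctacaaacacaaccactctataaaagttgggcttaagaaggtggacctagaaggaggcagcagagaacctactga
Mmp10: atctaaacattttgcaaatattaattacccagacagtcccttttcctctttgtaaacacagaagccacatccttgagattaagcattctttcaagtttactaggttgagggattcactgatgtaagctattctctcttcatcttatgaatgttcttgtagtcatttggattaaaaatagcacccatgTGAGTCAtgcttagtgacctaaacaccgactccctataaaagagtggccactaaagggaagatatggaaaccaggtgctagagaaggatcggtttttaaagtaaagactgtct
Mmp14: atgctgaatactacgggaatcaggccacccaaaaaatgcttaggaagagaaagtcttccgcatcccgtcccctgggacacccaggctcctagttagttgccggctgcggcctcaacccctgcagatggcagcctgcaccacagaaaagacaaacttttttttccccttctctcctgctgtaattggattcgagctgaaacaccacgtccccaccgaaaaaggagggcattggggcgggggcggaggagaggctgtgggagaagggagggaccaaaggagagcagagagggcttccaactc

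These windows lie on the plus strand at chr9:7272264-7272563 for Mmp13, chr9:7445572-7445871 for Mmp3, chr9:7502092-7502391 for Mmp10 and chr14:54431348-54431647 for Mmp14. The match was TGACTCA from -35 to -29 in Mmp13, TGAGTCA from -46 to -40 in Mmp3 and TGAGTCA from -63 to -57 in Mmp10. It was found in 3 of 7 windows here and in 7.79% of all 32544 promoters of the table. The same 3 windows held TATAAA, from -16 to -11 in Mmp13, -7 to -2 in Mmp3 and -29 to -24 in Mmp10. Of all promoters, 13.6% held it. GGGCGG, present in 35.9% of all promoters, was found in Mmp14, Timp1, Timp2 and Timp3 and in none of the 3 cluster genes. These matches describe letters in a fixed window and are not measured binding sites. For Mmp10 and Mmp14 the first bases after the annotated start were not found near the start of a GENCODE transcript of the gene. Positions in those windows are therefore less certain, and positions in every window, Mmp3 and Mmp13 included, are only as exact as the annotated start.

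In PSC4 cells kept in Control-SU, Timp2 was the most abundant of the 10 transcripts per unit of length, at 269 RPKM ± 58.1 (SD, n = 3; RPKM, the library-scaled count per kilobase of exon, with one scaling over all 12 libraries). Mmp2, the gelatinase that also cuts type IV collagen, stood at 81.7 RPKM ± 12.4, Timp1 at 75.2 RPKM ± 6.64 and Mmp14 at 57.6 RPKM ± 16.2. Mmp3 (stromelysin) followed at 42.2 RPKM ± 6.28 and Timp3, the inhibitor that binds the matrix, at 32.0 RPKM ± 4.15. In this order Timp2 lay clear of the rest, while each of Mmp2, Timp1, Mmp14, Mmp3 and Timp3 overlapped its neighbour over the libraries. Mmp19 stood at 21.9 RPKM ± 3.07 and Mmp13, a collagenase, at 8.06 RPKM ± 0.383, each apart from its neighbours. Mmp9, the second gelatinase, at 1.37 RPKM ± 0.568 and Mmp10, a second stromelysin, at 0.629 RPKM ± 0.240 were the lowest and overlapped.

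KPC4 cells kept in Control-PSC-SU expressed a narrower set. Timp2 was again highest, at 124 RPKM ± 8.03 (SD, n = 3), followed by Mmp14 at 26.7 RPKM ± 5.61, Mmp13 at 11.7 RPKM ± 2.43 and Timp1 at 11.4 RPKM ± 0.804. Mmp10 at 6.59 RPKM ± 3.49 and Timp3 at 4.63 RPKM ± 1.03 overlapped, and Mmp3 at 0.459 RPKM ± 0.168 and Mmp19 at 0.266 RPKM ± 0.189 were low. Mmp2 was at 4, 0 and 0 counts in the 3 control libraries and at 11, 6 and 0 counts with Gem-PSC-SU, a level close to the floor of 3 counts.

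The control groups of both lines were set against each other in one fit of all 12 libraries, with line and kind of control medium going together. Of the 9 genes tested, 8 differed (edgeR quasi-likelihood, Benjamini-Hochberg adjusted p under 0.05), 7 higher and 1 lower in PSC4, where 42.9% of all genes tested differed, 22.3% higher and 20.6% lower. Mmp3 was higher in PSC4 by 6.51 on the log2 scale of CPM, the count scaled to the library total (SE 0.37, edgeR adjusted p = 1.25e-08) and Mmp19 by 6.36 (SE 0.61, adjusted p = 1.48e-06). The inhibitors Timp3 and Timp1 were higher by 2.79 (SE 0.31) and 2.72 (SE 0.32), and Timp2 by 1.12 (SE 0.24, edgeR adjusted p = 0.00155). Mmp14 was higher by 1.11 (SE 0.33, edgeR adjusted p = 0.0138), a call lost without PSC4 Control-SU replicate 1 or KPC4 Control-PSC-SU replicate 2 (largest adjusted p 0.0641). Mmp2 was higher too, against counts of 4, 0 and 0. Mmp10 was the gene lower in PSC4, by -3.38 (SE 0.57, edgeR adjusted p = 0.000284), and Mmp13 at -0.54 (SE 0.36, adjusted p = 0.247) did not pass the test.

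**Figure D1:**
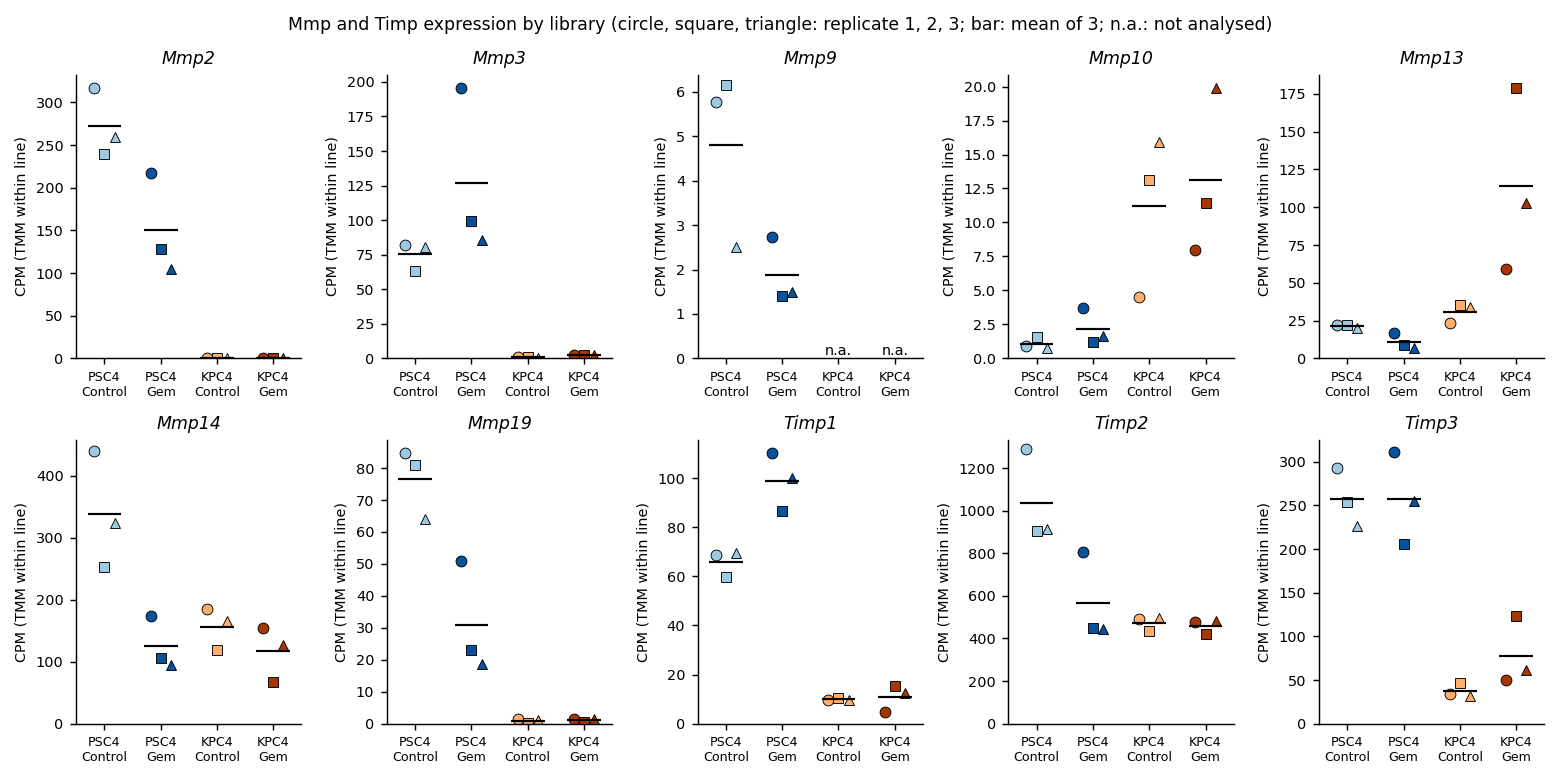
CPM (counts scaled to the library total, with TMM factors within each line) of the 10 genes in each of the 12 libraries, with one panel and one linear axis per gene. Circles, squares and triangles are replicates 1, 2 and 3, bars are means of 3, and Mmp9 was not analysed in KPC4. Mmp14 in PSC4 lies between 253 and 439 CPM with Control-SU and between 95.2 and 173 CPM with Gem-SU, and Mmp13 in KPC4 lies between 23.5 and 35.0 CPM with Control-PSC-SU and between 59.2 and 179 CPM with Gem-PSC-SU.

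The first comparison asked what the medium of gemcitabine-treated cancer cells does to PSC4 relative to that of vehicle-treated cells. With Gem-SU, Mmp14, Mmp2, Mmp19, Mmp13, Mmp9 and Timp2 fell and Timp1 rose, while Mmp3, Mmp10 and Timp3 did not pass the test. That made 7 of 10 called, 1 higher and 6 lower, where 46.3% of the 13347 genes tested were called, 24.3% higher and 22% lower. The median log2 fold change was -0.87 over the 10 genes and -0.00 over all genes. The CPM of both groups did not overlap for 7 of the 10 genes, 2 higher and 5 lower with Gem-SU, against 56.4% of all genes tested.

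Mmp14 (ENSMUSG00000000957), the membrane-bound activator, was at 439, 253 and 325 CPM in Control-SU replicates 1, 2 and 3 and at 173, 106 and 95.2 CPM with Gem-SU. Every Gem-SU library lay below every control. The log2 fold change was -1.44 (SE 0.28, edgeR adjusted p = 0.00364), which is 2.72-fold lower.

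Mmp2 (ENSMUSG00000031740), whose precursor Mmp14 activates, was at 317, 240 and 260 CPM with Control-SU and at 217, 129 and 104 CPM with Gem-SU. The groups did not overlap, although Gem-SU replicate 1 lay close under the lowest control. The log2 fold change was -0.86 (SE 0.27, edgeR adjusted p = 0.0282). Timp2 (ENSMUSG00000017466), the inhibitor that bridges Mmp14 and the Mmp2 precursor, was at 1289, 905 and 911 CPM with Control-SU and at 806, 447 and 446 CPM with Gem-SU. Here too all Gem-SU libraries were lower, replicate 1 the least so. Its log2 fold change was -0.87 (SE 0.28, edgeR adjusted p = 0.0309). All 3 components of this activation complex thus fell at the transcript level.

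Mmp19 (ENSMUSG00000025355), a secreted protease with basement membrane substrates, was at 84.6, 80.9 and 64.1 CPM with Control-SU and at 50.9, 23.1 and 18.6 CPM with Gem-SU, with no overlap. Its log2 fold change was -1.31 (SE 0.35, edgeR adjusted p = 0.0151). Mmp13 (ENSMUSG00000050578), the collagenase, was at 21.91, 21.96 and 20.04 CPM with Control-SU and at 16.7, 8.92 and 7.18 CPM with Gem-SU. All Gem-SU libraries were lower, and the log2 fold change was -0.96 (SE 0.30, edgeR adjusted p = 0.0300). Mmp9 (ENSMUSG00000017737), the other gelatinase, was low throughout, at 5.77, 6.15 and 2.50 CPM with Control-SU and at 2.73, 1.41 and 1.49 CPM with Gem-SU. Its groups overlapped, since control replicate 3 lay below Gem-SU replicate 1, and the log2 fold change was -1.35 (SE 0.43, edgeR adjusted p = 0.0306).

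Timp1 (ENSMUSG00000001131), the inducible secreted inhibitor, was the member that rose. It was at 68.7, 59.8 and 69.5 CPM with Control-SU and at 110, 86.6 and 99.8 CPM with Gem-SU. Every Gem-SU library lay above every control, with a log2 fold change of 0.58 (SE 0.15, edgeR adjusted p = 0.0115). Timp3 (ENSMUSG00000020044), the matrix-bound inhibitor, was at 293, 253 and 227 CPM with Control-SU and at 311, 205 and 255 CPM with Gem-SU. These groups overlapped, and the log2 fold change was -0.00 (SE 0.19, edgeR adjusted p = 0.991). The 3 inhibitors thus took 3 courses, with Timp2 lower, Timp1 higher and Timp3 without a detectable difference.

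Mmp3 (ENSMUSG00000043613), the stromelysin that can also activate other Mmp precursors, was at 82.0, 62.9 and 80.7 CPM with Control-SU and at 196, 99.6 and 85.7 CPM with Gem-SU. The groups did not overlap, but Gem-SU replicate 3 was only just above the controls and replicate 1 far above. The log2 fold change of 0.76 (SE 0.30, edgeR adjusted p = 0.0649) did not pass the test, while DESeq2 gave an adjusted p of 0.0315. Without Gem-SU replicate 1 the log2 fold change was 0.30. Mmp10 (ENSMUSG00000047562), the other stromelysin of the cluster, was at 0.927, 1.55 and 0.747 CPM with Control-SU and at 3.71, 1.201 and 1.63 CPM with Gem-SU. The groups overlapped and the log2 fold change was 1.02 (SE 0.53, edgeR adjusted p = 0.144). Of the stretches of 31 bases in Mmp3 and Mmp10 transcripts, 14.6% and 11.9% also occur in another gene, 202 of them shared between both, so the split of reads between this pair is uncertain.

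All 10 genes were highest in replicate 1 among the Gem-SU libraries, as were 45.2% of all genes tested. Leaving out 1 library at a time, Mmp14 (adjusted p 0.000450 to 0.0229) and Timp1 (0.0204 to 0.0407) passed edgeR's test in all 6 fits and Mmp19 in 5, lost without Gem-SU replicate 2. Mmp9 could not be part of one fit of both lines. In that fit Mmp14, Timp2, Mmp19 and Mmp13 passed, while Timp1 (log2 fold change 0.54, adjusted p = 0.169) and Mmp2 (-0.91, adjusted p = 0.0745) did not. Of the fits that leave out a library, Mmp2 passed in 2, Timp2 in 3, Mmp9 in 2 and Mmp13 in 1. The number of the 10 called was 3 without Control-SU replicate 1, 2 without Gem-SU replicate 2, 4 without Gem-SU replicate 3, and 7 without replicate 1 of both groups, an alternative chosen after seeing the data.

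**Figure D2:**
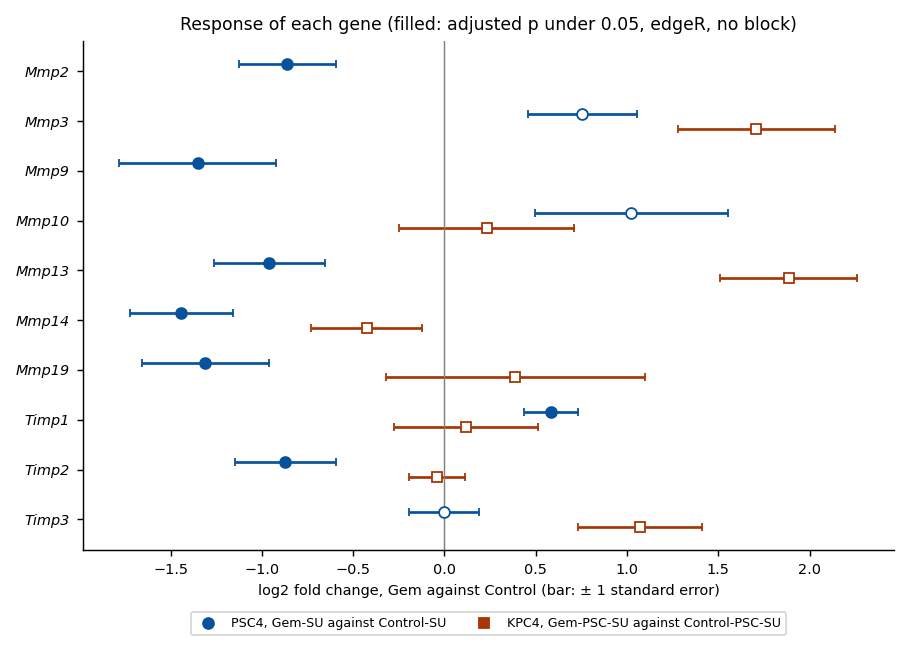
Log2 fold change (horizontal axis) of each gene with its standard error as a bar, for PSC4 (circles) and KPC4 (squares), where filled symbols have an edgeR adjusted p under 0.05 without a replicate block. In PSC4 6 genes are filled below 0 and Timp1 above it. No KPC4 symbol is filled, and Mmp13 sits on opposite sides of 0 in the lines.

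The make-up of the summed Mmp transcripts varied less between the Gem-SU libraries than the levels did. With Control-SU, Mmp3 made up 18.4%, 19.1% and 22.1% of the summed RPKM of the 7 Mmp genes in PSC4, and with Gem-SU 48.1%, 45.3% and 45.8%. Mmp14 made up 29.8%, 23.3% and 26.8% with Control-SU and 12.9%, 14.6% and 15.4% with Gem-SU. Mmp3 and Mmp14 shares thus lay apart between the groups in all libraries, which describes proportions, not amounts. Mmp2 went from 38.3% ± 0.639 to 29.8% ± 1.35 (SD, n = 3 each) of the Mmp sum. On the inhibitor side, Timp1 went from 20.3% ± 2.80 to 39.4% ± 5.16 and Timp2 from 71.2% ± 2.96 to 49.5% ± 5.95 of the summed Timp RPKM (SD, n = 3 each).

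The 7 Mmp genes summed to 213 RPKM ± 34.8 with Control-SU and 147 RPKM ± 63.8 with Gem-SU in PSC4 (SD, n = 3 each), with overlapping libraries. The ratio of summed Timp to summed Mmp RPKM was 1.76 ± 0.0752 and 2.02 ± 0.430, also overlapping. In KPC4, where Mmp9 was not analysed and the sum holds 6 Mmp genes, the Mmp sum was 45.7 RPKM ± 4.36 with Control-PSC-SU and 72.8 RPKM ± 14.96 with Gem-PSC-SU, while the Timp sum was 140 RPKM ± 6.21 and 142 RPKM ± 5.59. The Timp to Mmp ratio in KPC4 was 3.23, 3.13 and 2.83 with Control-PSC-SU and 2.44, 1.62 and 1.98 with Gem-PSC-SU, and these libraries did not overlap. The rise of the KPC4 Mmp sum lay mostly in Mmp13, at a mean of 11.7 RPKM with Control-PSC-SU and 43.1 RPKM with Gem-PSC-SU. Mean Mmp14 was lower with Gem-PSC-SU. The means of Mmp2, Mmp3, Mmp10 and Mmp19 were higher, with Mmp10 the most abundant of them at 6.59 and 7.76 RPKM. Mmp15 is not part of the sum, and its mean in KPC4 was 131 CPM with Control-PSC-SU and 95.4 CPM with Gem-PSC-SU. The ratio therefore does not describe the whole family. These sums are given as description, with no test.

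**Figure D3:**
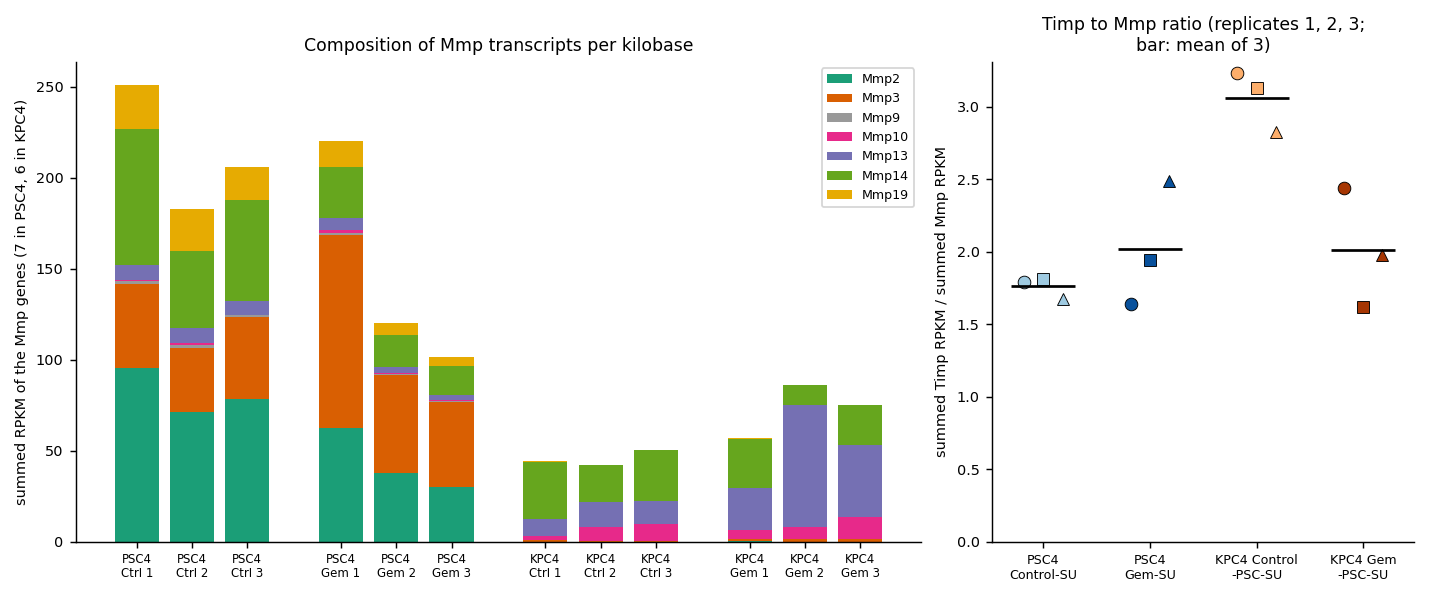
Left, summed RPKM of the Mmp genes in each library, 7 in PSC4 and 6 in KPC4, where Mmp9 was not analysed, with colours for the contribution of each gene. Right, the ratio of summed Timp to summed Mmp RPKM per library, with bars at the mean of 3. Mmp3 fills 45.3% to 48.1% of the PSC4 columns with Gem-SU and 18.4% to 22.1% with Control-SU, and Mmp13 fills 40.4% to 77.3% of the KPC4 columns with Gem-PSC-SU and 20.2% to 31.8% with Control-PSC-SU.

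The second comparison asked what the medium of PSC4 cells educated with Gem-SU does to KPC4. No gene was called in KPC4 by edgeR without a block, so that 0 of the 8 genes tested were called against 0% of 13236 genes. At an unadjusted p under 0.05 there were 3 of the 8, Mmp13, Mmp3 and Timp3, and 2251 genes in all (17%). The labels do not state that equal replicate numbers mark pairs, and in KPC4 they were taken as pairs from the values. With the number as a block the same 3 genes passed, all higher with Gem-PSC-SU, where 6.07% of all genes were called higher. DESeq2 without the block also called these 3 higher, where it called 5.11% of its genes higher. Their CPM groups did not overlap, which held for 3 of 8 genes here and for 22.8% of all genes tested.

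Mmp13 in KPC4 was at 23.5, 35.0 and 33.9 CPM with Control-PSC-SU and at 59.2, 179 and 103 CPM with Gem-PSC-SU. Every Gem-PSC-SU library lay above every control, from replicate 1, the lowest, to replicate 2, the highest. The log2 fold change was 1.89 (SE 0.38, edgeR adjusted p = 0.115), and 1.76 with the block (edgeR adjusted p = 0.00351). Without the block it passed in 1 of the 6 fits that leave out a library, that without Gem-PSC-SU replicate 1 (smallest adjusted p 0.00565).

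Timp3 in KPC4 was at 33.6, 46.1 and 31.5 CPM with Control-PSC-SU and 49.6, 123 and 61.4 CPM with Gem-PSC-SU. The groups lay apart, with a log2 fold change of 1.07 (SE 0.34, edgeR adjusted p = 0.185) and, with the block, 0.98 (edgeR adjusted p = 0.0217). Among edgeR's 6 fits without the block that leave out a library, it passed in the 1 without Gem-PSC-SU replicate 1 (adjusted p = 0.0380). Mmp3 was near 1 CPM in this line, at 1.15, 0.682 and 0.603 CPM with Control-PSC-SU, and at 2.71, 2.66 and 2.64 CPM with Gem-PSC-SU. Its 3 Gem-PSC-SU libraries were nearly equal and all above the controls, with a log2 fold change of 1.71 (SE 0.43, edgeR adjusted p = 0.135) and, with the block, 1.76 (edgeR adjusted p = 0.0426).

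The other genes did not pass in KPC4 with or without the block. Mmp14 was at 185, 119 and 165 CPM with Control-PSC-SU and at 155, 67.3 and 127 CPM with Gem-PSC-SU (log2 fold change -0.43, SE 0.31, edgeR adjusted p = 0.495). Timp2 was at 490, 434 and 497 CPM and at 477, 423 and 480 CPM, the steadiest of the group (log2 fold change -0.04, SE 0.15, edgeR adjusted p = 0.912). Both overlapped between the groups, with edgeR adjusted p = 0.0824 for Mmp14 and 0.833 for Timp2 with the block. Mmp10 ranged from 4.49 to 15.9 CPM with Control-PSC-SU and from 7.94 to 19.9 CPM with Gem-PSC-SU, and Timp1 from 9.54 to 10.6 CPM and from 4.59 to 15.2 CPM. Mmp19 was at 0.207 to 1.498 CPM and 0.651 to 1.57 CPM (edgeR adjusted p = 0.456 with the block). All 3 overlapped, with log2 fold changes of 0.23 (SE 0.48), 0.12 (SE 0.39) and 0.39 (SE 0.71).

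Whether a response differed between the lines was tested by the interaction of line and medium over all 12 libraries. Mmp13 was the gene called out of 9 tested, where 9.85% of 13632 genes were. Its log2 change in PSC4 minus that in KPC4 was -2.88 (SE 0.52, edgeR adjusted p = 0.00456), and it passed in all 12 fits that leave out a library (adjusted p 0.00136 to 0.0182). The other differences lay between -3.07 for Mmp2, which rests on 0 to 11 counts in KPC4, and 0.75 for Mmp10. With the replicate number as a block 7 of 9 were called, all lower in PSC4 than in KPC4, where 12% of all genes were. These were Mmp2, Mmp3, Mmp13, Mmp14, Mmp19, Timp2 and Timp3, with Timp2 at -0.92 (edgeR adjusted p = 0.00502) and Mmp14 at -1.02 (adjusted p = 0.00879). This fit blocked the libraries of both lines, although the numbers were taken as pairs in KPC4 and not in PSC4, from the values and not from the labels. Its calls therefore rest in part on a pairing not adopted for PSC4.

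The surrounding genes were counted in lists chosen by function, and each count in PSC4 is to be read against the 46.3% of all genes called there, 24.3% higher and 22% lower. Of 17 other Mmp and Timp genes, 8 were tested in PSC4, with 3 higher, 2 lower and 3 not called and a median log2 fold change of 0.09. Mmp15, a membrane-bound relative of Mmp14, went from 0.174, 0.379 and 0.0650 CPM with Control-SU to 12.75, 12.04 and 8.37 CPM with Gem-SU (log2 fold change 5.72, SE 0.50, edgeR adjusted p = 0.000103). It thus rose from near the floor while Mmp14 fell, and in KPC4 it was at 40.4 to 183 CPM. The summed CPM of 10 epithelial cancer markers, of which 7 had a row in PSC4, was 35.1 to 40.7 with Control-SU and 58.0 to 66.01 with Gem-SU, against 6091 to 7542 in KPC4. Most of that difference was Sox9, at a mean of 21.3 and 43.6 CPM. Krt19 also rose, from a mean of 2.94 to 7.64 CPM, while Muc1 fell from 10.9 to 6.33 CPM, Krt8 and Krt18 were under 1 CPM in every PSC4 library, and Cldn7 was at 0 in all Gem-SU libraries. Krt8 averaged 2834 CPM in the KPC4 controls. Mmp17, another membrane-anchored member, rose by 2.39 on the log2 scale, from 0.0631 to 0.261 CPM up to 0.779 to 1.17 CPM, and so was low in both groups. Mmp11, a fibroblast protease, fell by 1.96 on the log2 scale, from 39.6 to 148 CPM down to 15.3 to 28.4 CPM.

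Of 22 Adam and Adamts proteases, relatives with a disintegrin domain, 17 were tested in PSC4, with 1 higher, 7 lower and 9 not called (median -0.42). Adam12 rose by 3.48 on the log2 scale, from 0.0315 to 0.390 CPM up to 1.35 to 4.57 CPM. Adamts5, an aggrecan-cutting protease, fell by 2.42, from 139, 173 and 215 CPM to 45.3, 27.8 and 25.2 CPM, and Adamts12 fell by 1.64. The 8 of 17 called stand against 46.3% of all genes tested. In KPC4 none of the 6 other Mmp genes and none of the 18 Adam and Adamts genes tested was called, with or without the block. The smallest p there belonged to Mmp16 (log2 fold change 1.13) and Mmp23 (0.70), and to Adam8 (0.68) and Adamts5 (1.99).

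Of 16 activators and partners, 12 were tested in PSC4, with 5 higher, 4 lower and 3 not called (median -0.30). Plau, the urokinase that generates plasmin, an activator of several Mmp precursors, rose by 2.17 on the log2 scale (SE 0.16), and its receptor Plaur by 2.24 (SE 0.23, edgeR adjusted p = 0.000220). Lcn2, a partner of the Mmp9 protein, was low, at 0.580 to 4.16 CPM with Control-SU and 0.210 to 0.881 CPM with Gem-SU, and the groups overlapped. It fell by 2.11 with an edgeR adjusted p of 0.0493, and did not pass with the block (edgeR adjusted p = 0.0600). In KPC4, Plaur (1.39) and Plat (0.98) had the smallest p of this list and did not pass without the block, with edgeR adjusted p = 0.129 and 0.228. With the block both passed, and they were the 2 genes of the list that did.

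Of 12 AP-1 and ETS transcription factors, 11 were tested in PSC4, with 10 higher, 1 lower (Fosl2) and a median of 2.13. Fos rose by 6.06, Fosb by 5.45 and Fosl1 by 3.71 on the log2 scale. In KPC4 0 of 12 were called and 4 with the block, with a median of 1.25 over the 12, and Fos (5.50) and Fosl2 (1.24) had the smallest p (edgeR adjusted p = 0.112 each). Fos was at 28.8, 433 and 188 CPM in Gem-PSC-SU replicates 1, 2 and 3. Mmp13, Timp3 and Timp1 were also lowest in replicate 1 and highest in replicate 2. The other genes tested, Mmp3 and Mmp10 among them, did not share that order. Replicate 2 was the highest for 39.7% of all genes, whichever replicate was lowest, and the share of all genes with the full order was not counted. In PSC4, where Fos also rose, Mmp13 fell (log2 fold change -0.96), while Mmp3 (0.76) and Mmp10 (1.02) did not pass edgeR's test. The part of these factors in the Mmp results was not tested.

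**Figure D4:**
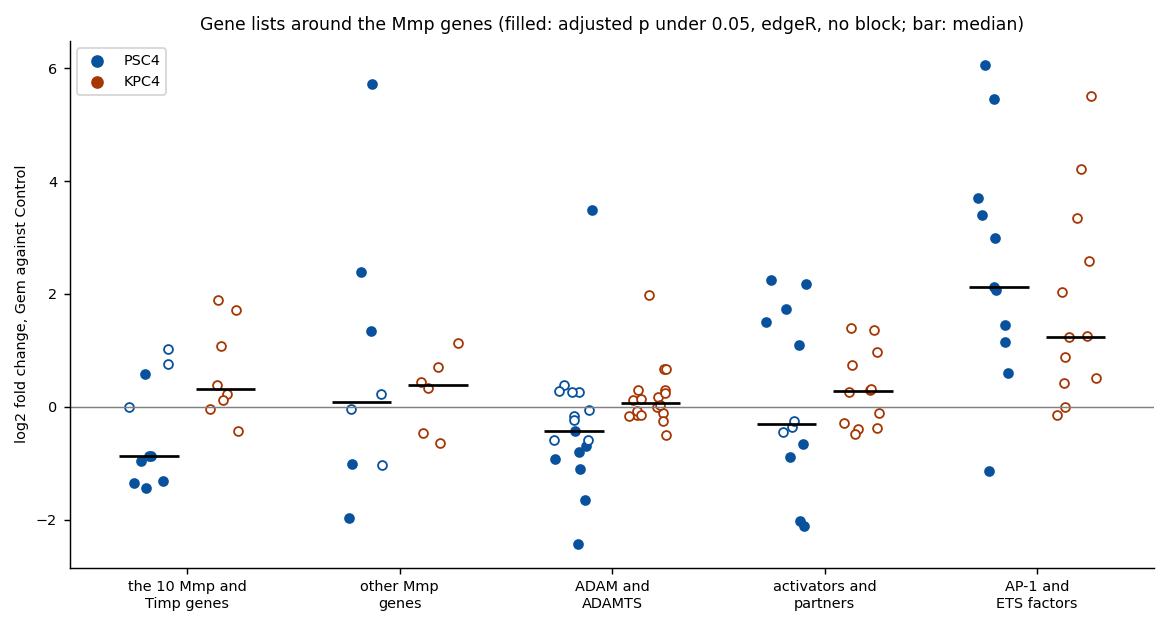
Log2 fold change with Gem medium against Control medium (vertical axis) for the 10 genes and the 4 surrounding lists, in PSC4 (blue) and KPC4 (brown), where each point is a gene tested, filled points have an edgeR adjusted p under 0.05 without a block and bars are medians. The AP-1 and ETS list lies highest in both lines, with medians of 2.13 and 1.25, and no KPC4 point is filled.

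Cell type markers were read in the same libraries. In PSC4 the summed CPM of 9 stellate and fibroblast markers with a row was 6095 to 7387 with Control-SU and 1930 to 2959 with Gem-SU. Of the 9, 7 fell, among them Pdgfra and Col3a1. Acta2 and Des went the other way, by 0.78 (edgeR adjusted p = 0.0538, DESeq2 adjusted p = 0.0255) and 0.25 (edgeR adjusted p = 0.587) on the log2 scale. In KPC4 the same list summed to 16.8 to 32.9. The 7 markers that fell did so in the same libraries as Mmp14, Mmp2, Mmp19 and Timp2, and their part in those changes was not tested. In bulk RNA, fewer cells of a type and less RNA per cell cannot be told apart. Among leukocyte markers, 5 of 10 had a row in PSC4, and their sum was 19.6 to 27.7 CPM with Control-SU and 13.6 to 16.04 CPM with Gem-SU. That difference was in Cd14, at a mean of 17.7 and 9.55 CPM, while Cd68 averaged 4.36 and 4.32 CPM and Csf1r, Itgam and Lyz2 each averaged under 1 CPM. In KPC4, 4 of 10 had a row and summed to 31.9 to 78.2 CPM, again mostly Cd14. Endothelial markers summed to at most 5.95 CPM in any library.

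The genes most like the Mmp and the Timp with the largest change in PSC4 were taken by Pearson's r of log2 CPM over the 12 libraries, after each line was centred, among 11203 genes. For Mmp14 they were Abtb1 (r = 0.993), St6galnac6 (0.990) and Cln6 (0.989). For Timp2 they were Psap (r = 0.990), Ctsb (0.987) and Pcolce (0.982). These values share libraries, scaling and the Gem contrast, and are given as description.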

How the data were processed

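RNA from 12 cultures was sequenced on an Illumina instrument, per the labels' protocols. The authors deposited a table of raw counts per gene for each line, and one comparison table each with log2 fold changes, p-values and adjusted p-values, used here only as the authors' values. Per the submitters' processing notes, the build was GRCm39 and the tools FastQC, Trim Galore 0.6.10, cutadapt 5.2, Salmon, R 4.5.1 and DESeq2, with roles not given. Counts on a gene with near-identical or overlapping copies are uncertain. The smallest row total was 0 in the PSC4 table and 11 in the KPC4 table. Symbols came from GENCODE M21 (99.7% of identifiers matched in each line), and exon lengths for RPKM from the same annotation. RPKM and CPM were computed here from the counts.

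Each line was tested in R 4.3.3 with edgeR 4.0.16: filterByExpr, TMM, robust quasi-likelihood test, Benjamini-Hochberg over all genes, threshold 0.05. The lines were compared in one fit of genes in both tables. DESeq2 1.42.0, DESeq2's size factors, no filter, a replicate block, one fit of all 12 libraries and leaving out each library were alternatives. The edgeR procedure without a block was run on simulated data, and its outcome is not given here. The block fits were not run on simulated data. Groups came from the titles, and 0 sample columns were left unused. The 10 genes and all lists were chosen with earlier results of these data known.

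Named genes were all 10, up to 3 per list and line with the largest called change, or the 2 with the smallest p where none was called, and 3 genes of like pattern for 1 Mmp and 1 Timp. Single cell type markers were named after their values were seen. Same-numbered KPC4 libraries deviated together from their group means (r = 0.428, 0.520 and 0.310 over genes), so the numbers were taken as pairs there, from the values and not from the labels. The highest such r was in PSC4, at 0.557 for replicate 1, and no r of differently numbered libraries is given for comparison. Calls with the block in KPC4 therefore rest on a pairing read from the same values that the block fit tests. Replicates of a group differed beyond counting noise. Counting intervals and floors (3 counts per library) cover counting error only.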

Additional observations from a re-analysis of the deposited data

Results flagged for a closer look

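Mmp13 differed between the lines in its response, which is what drew attention to it. Its log2 change in PSC4 minus that in KPC4 was -2.88 (SE 0.52, edgeR adjusted p = 0.00456). In PSC4 it fell from 20.04 to 21.96 CPM with Control-SU to 7.18 to 16.7 CPM with Gem-SU, lower in 3 of 3 libraries. In KPC4 it stood at 23.5 to 35.0 CPM with Control-PSC-SU and at 59.2 to 179 CPM with Gem-PSC-SU, higher in 3 of 3 libraries. Each line received its own kind of medium, so line and medium cannot be told apart in this difference.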

How the results depend on the processing

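No called value changed sign under the alternatives. In KPC4 edgeR without a block called 0 genes and 0 of the 8 Mmp and Timp genes tested. DESeq2 called 822 genes and 3 of the 8, the replicate block 1171 and 3, and one fit over all 12 libraries 610 and 2. Leaving out 1 KPC4 library gave 0 to 1129 genes and 0 to 2 of the 8, the highest without Gem-PSC-SU replicate 1. Leaving out Control-PSC-SU replicate 2 gave 174 genes and Gem-PSC-SU replicate 2 gave 1. In PSC4 the 7 of 10 became 4 of 9 in one fit over all 12 libraries, where Mmp9 was not run and Timp1 and Mmp2 were lost, and leaving out 1 library gave 2 to 7 of the 10 and 4061 (without Gem-SU replicate 2) to 6826 genes against 6177. For the difference between lines, DESeq2 called 2145 genes and the block, set in both lines, 2988 against 1343. The block called 7 of 9 against 1. Leaving out 1 library gave 610 (without PSC4 Gem-SU replicate 2) to 1993 genes and 1 to 4 of the 9, with 4 without PSC4 Gem-SU replicate 1 and 2 without each Gem-PSC-SU library. In the comparison of controls it gave 7 to 8 of 9. The causes were not tested. In PSC4 the deviations of same-numbered libraries correlated at 0.557, -0.0440 and 0.0973, so the numbers were not taken as pairs there, and the block gave 7266 genes and 8 of 10, adding Mmp3. Depth limits Mmp2, Mmp3 and Mmp19 in KPC4 and Mmp10 in PSC4.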

Other observations

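The authors' deposited table gave the 10 genes in PSC4 the same signs as the counts did here, with log2 fold changes from -1.56 for Mmp9 to 1.00 for Mmp10. In KPC4 the authors' deposited table listed adjusted p = 0.000184 for Mmp13 and 0.0190 for Mmp3, and 0.0591 for Timp3. For Mmp19 in KPC4 the authors' deposited table had a log2 fold change of -0.53, and the counts gave 0.39 (SE 0.71), both without a call.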
